A study of Mus musculus with 2 samples.

Results

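Interferon-stimulated genes are genes that cells switch on when interferon binds its receptor. Here 39 of them, a module fixed by a list of gene symbols, were followed in single-cell RNA-seq of mouse kidney tumours. All 39 were found among the 55357 genes of the deposited matrix, matched by symbol alone. RENCA, a kidney cancer line of BALB/c origin, was engrafted into the kidney of BALB/c mice, and each label, SMYD3 knockdown and WT, has 1 library. Both were RENCA tumours, and the series text places the knockdown in the graft. SMYD3 is a protein methyltransferase, and the series text states that CD45+ immune cells were sorted, whereas the records of the samples give epithelial cells as the type. The number of mice pooled, their age and sex, and the knockdown reagent are not given in the sources used here. With 1 library for each label no test between labels was possible. Every interval below covers counting error alone and leaves out how much mice or libraries vary.

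Type I interferons and interferon lambda signal to a transcription factor complex that contains STAT2 and IRF9 and binds a promoter element called the interferon-stimulated response element. Interferon gamma, made mainly by T and natural killer cells, acts through another promoter element, the gamma-activated site. The genes switched on encode sensors of foreign RNA and DNA, factors that amplify or end the signal, and proteins that block viruses, and immune cells of tumours can express them without infection.

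Filtering left 8784 cells under the knockdown label and 8079 under the WT label, with 117679 and 113400 member UMIs (unique RNA molecules counted). These were 0.141% and 0.139% of all UMIs. Barcodes shared between the libraries numbered 22. Cell classes were assigned by marker genes that include no member and are named with "-like". Mononuclear-phagocyte-like cells numbered 5812 under the knockdown label and 5831 under the WT label, and neutrophil-like cells 1934 and 1107. The leukocyte gene Ptprc, which encodes CD45, stood at 331 and 357 CPM (UMIs per 1000000 of the class) in the phagocytes, and at 5.89 and 9.75 CPM in 46 and 88 keratin-positive, tumour-like cells. In those tumour-like cells Smyd3 held 29 and 40 UMIs, which is 21.3 against 16.9 CPM, a ratio of 1.26 (95% interval 0.753 to 2.08). A lower Smyd3 level under the knockdown label was thus not seen in these cells, and the libraries are called by their labels.

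Many of the members' promoters, though not all, share a feature that the list did not use. The letters GAAANNGAAA, a form of the response element, were searched on both strands in RefSeq promoter windows of the GRCm38.p6 assembly, from 250 bases before to 50 after a gene's start. Of the 30 members with a window, 17 (56.7%) held the element, against 3.99% of all 27025 genes with one. TTCNNNGAA, a form of the gamma-activated site, was in 7 members (23.3%) and in 9.55% of all genes. The 2 motifs occurred together in 5 members, and neighbouring matches of the first may overlap. The stretches below are those of 6 genes on which the results turn, written from 5′ to 3′ on the gene's strand, with the response element letters in capitals. They lie upstream of the start, outside the annotated gene, and TTTCNNTTTC is the same motif read on the other strand.
Isg15, chr4:156200845-156200926, minus strand: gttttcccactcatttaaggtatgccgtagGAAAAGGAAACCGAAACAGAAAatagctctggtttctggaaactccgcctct
Ifit1, chr19:34640755-34640843, plus strand: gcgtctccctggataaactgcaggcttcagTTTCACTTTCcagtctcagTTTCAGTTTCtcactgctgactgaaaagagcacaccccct
Ifit3, chr19:34583343-34583446, plus strand: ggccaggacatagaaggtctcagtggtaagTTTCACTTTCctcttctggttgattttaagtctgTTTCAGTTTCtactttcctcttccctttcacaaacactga
Rsad2, chr12:26456533-26456602, minus strand: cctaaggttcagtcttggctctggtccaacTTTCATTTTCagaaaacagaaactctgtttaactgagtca
Bst2, chr8:71537557-71537632, minus strand: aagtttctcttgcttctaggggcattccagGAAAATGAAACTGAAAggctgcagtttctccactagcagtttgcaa
Gbp7, chr3:142530253-142530322, plus strand: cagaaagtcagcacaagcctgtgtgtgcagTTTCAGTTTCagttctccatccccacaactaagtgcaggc

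Isg15 carried 3 overlapping matches in its stretch, Ifit1, Ifit3 and Bst2 carried 2, and Rsad2 and Gbp7 carried 1. The 104-base stretch of Ifit3 was letter for letter that of its neighbour Ifit3b. These neighbours also share transcript sequence: 51.2% of the 50-base words of Ifit3 occur in Ifit3b, and 57.6% of those of Oas1a in Oas1g, so the counts of these genes are uncertain. Windows of Ifit2, Cmpk2, Ifi44, Irf7, Irf9, Lgals3bp, Isg20, Oasl1, Oasl2, Samd9l, Xaf1, Herc6 and Ifi47 did not hold the first motif's letters. Several members are neighbours in the genome. Ifit2, Ifit3, Ifit3b and Ifit1, which encode RNA-binding antiviral proteins, lie in this order on chromosome 19 between 34550694 and 34650009. Rsad2, which encodes the antiviral enzyme viperin, and Cmpk2, a mitochondrial nucleotide kinase, lie side by side on chromosome 12, at 26442746 to 26456452 and 26469204 to 26479837. Dhx58, Zbp1, Usp18, Mx1, Mx2, Oas2, Parp14, Rtp4 and Iigp1 were not among the promoters used.

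Most member UMIs lay in mononuclear-phagocyte-like cells, which held 82.4% of them under the knockdown label and 81.5% under the WT label. This followed their share of all UMIs, 86.1% and 85.4%, since these cells were many and deep (median 11642 and 11241 UMIs per cell). With cells of at least 1000 UMIs thinned to 1000, the phagocytes' share of member UMIs was 56.9% and 65.9%. Shallower cells were left out of this, among them 335 and 225 neutrophil-like cells. Neutrophil-like cells, with medians of 1379 and 1315 UMIs per cell, held 6.79% and 3.63% of member UMIs from 3.58% and 2.03% of all UMIs. Among single members the phagocyte share was lowest for Isg20, an RNA exonuclease (40.5% and 45.5%), and highest for Lgals3bp, a secreted galectin-binding glycoprotein (93.1% and 90.4%).

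Relative to a class's own UMIs, the module stood higher in neutrophil-like, T-cell-like and cDC1-like cells than in the phagocytes, and lower in cDC2-like cells. The summed members reached 2669 CPM under the knockdown label and 2491 under the WT label in neutrophil-like cells, 2960 and 2308 in T-cell-like cells, and 2303 and 2365 in cDC1-like cells, the dendritic cells that cross-present antigen. In phagocytes the sums were 1348 and 1329 CPM, and in cDC2-like cells, another dendritic class, 807 and 1066. Within the phagocytes, cells gated as macrophage-like by genes such as C1qa stood at 1609 and 1531 CPM, and cells gated as monocyte-like by genes such as Vcan at 965 and 1024. For 30 of 39 members the class of at least 100 cells with the highest CPM was the same in both libraries: T-cell-like for 10, cDC1-like for 9, neutrophil-like for 8 and macrophage-like for 3. This was not counted over all genes, so it does not set the members apart. For 17 of the 30 the interval of the highest class over the next lay above 1 in both libraries, and for the others, Oas1a, Irf9 and Xaf1 among them, the leading classes did not differ beyond counting error in at least 1 library. The macrophage-like 3 were Bst2, which encodes tetherin and holds virions on the cell surface, Lgals3bp, and Oas1a. Oas1a is an oligoadenylate synthetase that activates RNA decay. Tumour-like cells, too few for this ranking, had higher CPM of Bst2 and Lgals3bp than macrophage-like cells in both libraries.

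**Figure D1:**
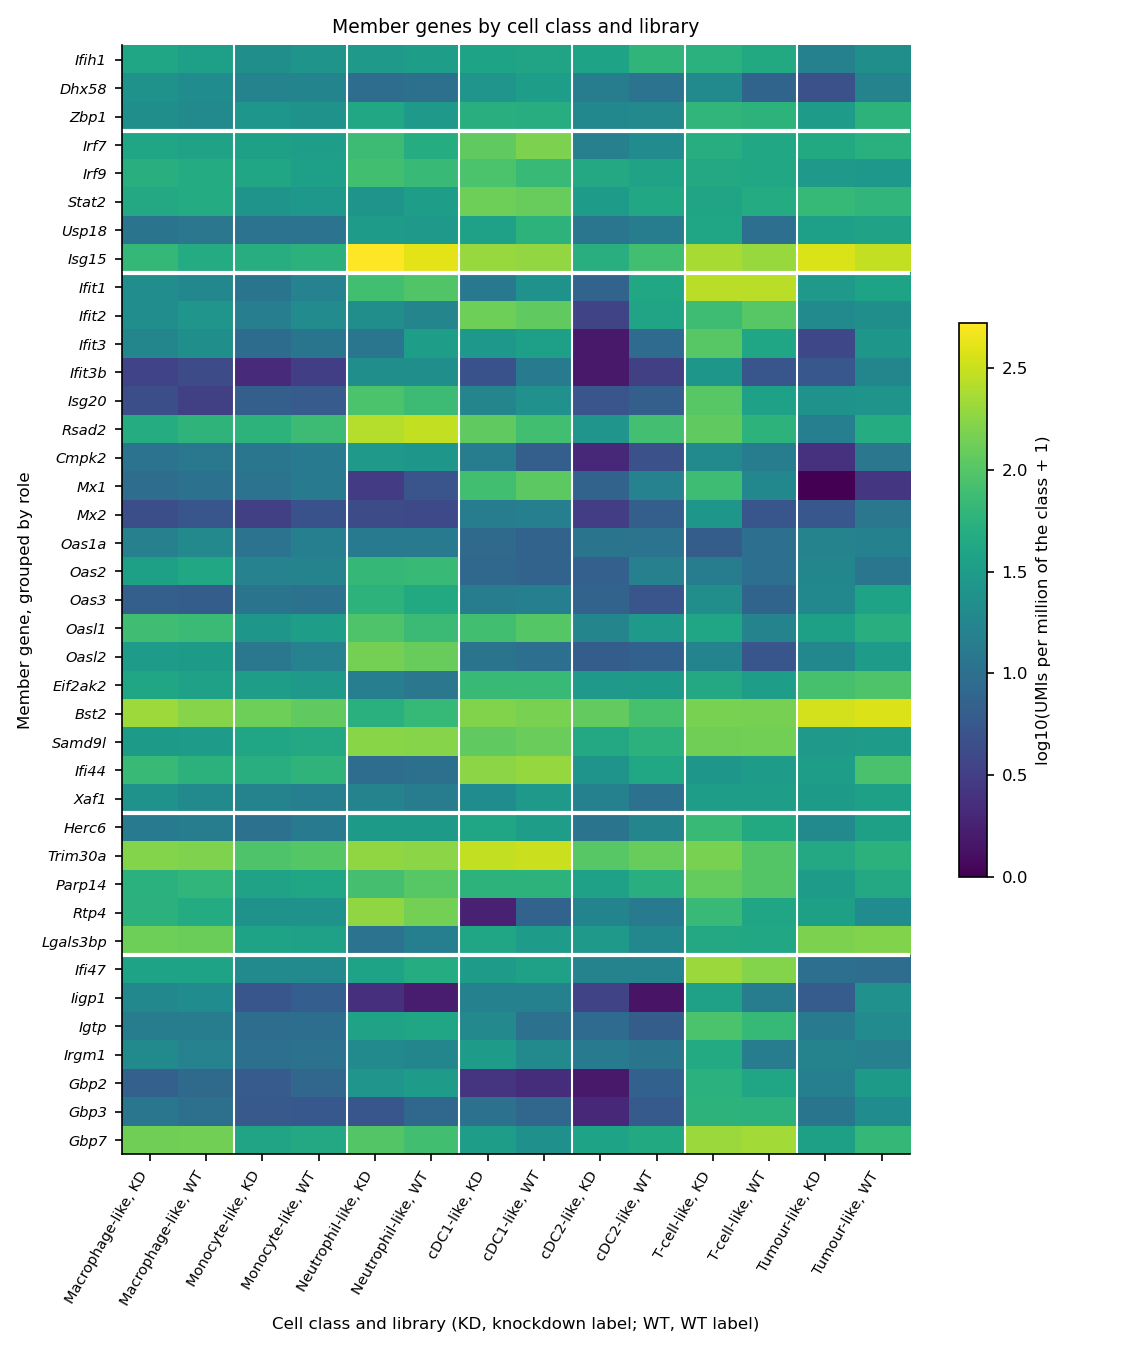
Rows are the 39 members grouped by role (sensors, signalling, antiviral effectors, ubiquitin-related and other, GTPases), columns are cell classes with the knockdown-label (KD) and WT-label libraries side by side, and colour is log10 of CPM plus 1. Colours are to be compared along a row: Isg15 is brightest in neutrophil-like cells (527 and 410 CPM), Trim30a in cDC1-like cells (294 and 317 CPM).

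The class order differed by gene. Isg15, a ubiquitin-like protein that is attached to other proteins, was 9.05 times as high per UMI in neutrophils as in phagocytes under the knockdown label and 8.11 times under the WT label. Isg20 was 21.5 and 21.2 times, Rsad2 4.83 and 4.21 times and Samd9l, a viral restriction factor, 5.32 and 4.75 times as high. Lgals3bp went the other way, at 0.107 and 0.153 of the phagocyte level, as did Ifi44, at 0.141 and 0.162. In all, 21 members had an interval above 1 for neutrophils over phagocytes in both libraries and 7 had one below 1. The same count over all genes was not made, so these counts do not set the members apart from other genes. Free RNA from macrophages could add to neutrophil counts, so macrophage markers served as a gauge. They stood in neutrophils at 1.42% to 3.43% (knockdown label) and 1.92% to 4.01% (WT label) of their UMIs per phagocyte. These markers are on the phagocyte list, and the neutrophil gate required more neutrophil than phagocyte marker UMIs. The gate itself thus kept the gauge low, and how much free RNA adds to the members was not tested. For 33 and 32 of the members the whole 95% interval of their own share lay above the highest of those marker shares, and for Dhx58, Ifi44, Iigp1, Lgals3bp and Mx1 it did so in neither library. The point values of Dhx58, 5.18% and 6.17%, were still above it.

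Between macrophage-like and monocyte-like cells, 26 members were higher in the former and 5 in the latter, with intervals on that side of 1 in both libraries. How many of all genes did so was not counted, so this describes the members and does not set them apart. Gbp7, a guanylate-binding GTPase, stood at 133 and 138 CPM in macrophages against 38.3 and 42.5 in monocytes, a ratio of 3.48 under the knockdown label and 3.25 under the WT label. Iigp1, an immunity-related GTPase that attacks parasite vacuoles, had ratios of 4.04 and 3.61. Among the 5 that were higher in monocytes were Oas3, at 0.562 and 0.573, and Isg20, at 0.626 and 0.457.

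Within the phagocytes some members lay in very few cells and others in most. Rsad2 had a UMI in 812 of 11643 phagocytes of both libraries (6.97%), with 10.7 UMIs per positive cell, and the 40 richest cells (0.344%) held as many of its 8709 UMIs as all other cells together. Ifit2 had 2942 UMIs in 529 cells, with 45 cells holding as many as the rest, and Cmpk2 1549 UMIs in 399 cells, with 33. Bst2 had 23175 UMIs in 7862 cells (67.5%), and 1652 cells were needed to reach the same share. Oas1a had a UMI in 1700 cells but only 1.19 per positive cell.

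To measure this at equal depth, 10048 phagocytes were thinned to 5000 UMIs (829 and 766 shallower cells were left out), and each member was asked what share of its UMIs fell in the 10% of cells highest in the other members. This share was 90.2% for Ifit2, 88.0% for Cmpk2, 87.4% for Rsad2, 85.8% for Ifit3 and 85.7% for Ifit1. At the other end it was 24.1% for Oas1a, 23.3% for Bst2, 21.3% for Gbp7, 20.6% for Lgals3bp and 17.3% for Irf9, the DNA-binding partner of STAT2. The 8844 other genes with at least 300 thinned UMIs had a median of 9.77% and a 99th percentile of 19.9%. Of the 36 members with that many UMIs, 35 lay above that percentile, the exception being Irf9. All genes were scored on the same cells and the same draw, so these shares are a description. By library, Rsad2 was at 87.2% in both, Ifit2 at 88.6% under the knockdown label and 91.2% under the WT label, and Ifit1 at 81.5% and 90.2%.

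**Figure D2:**
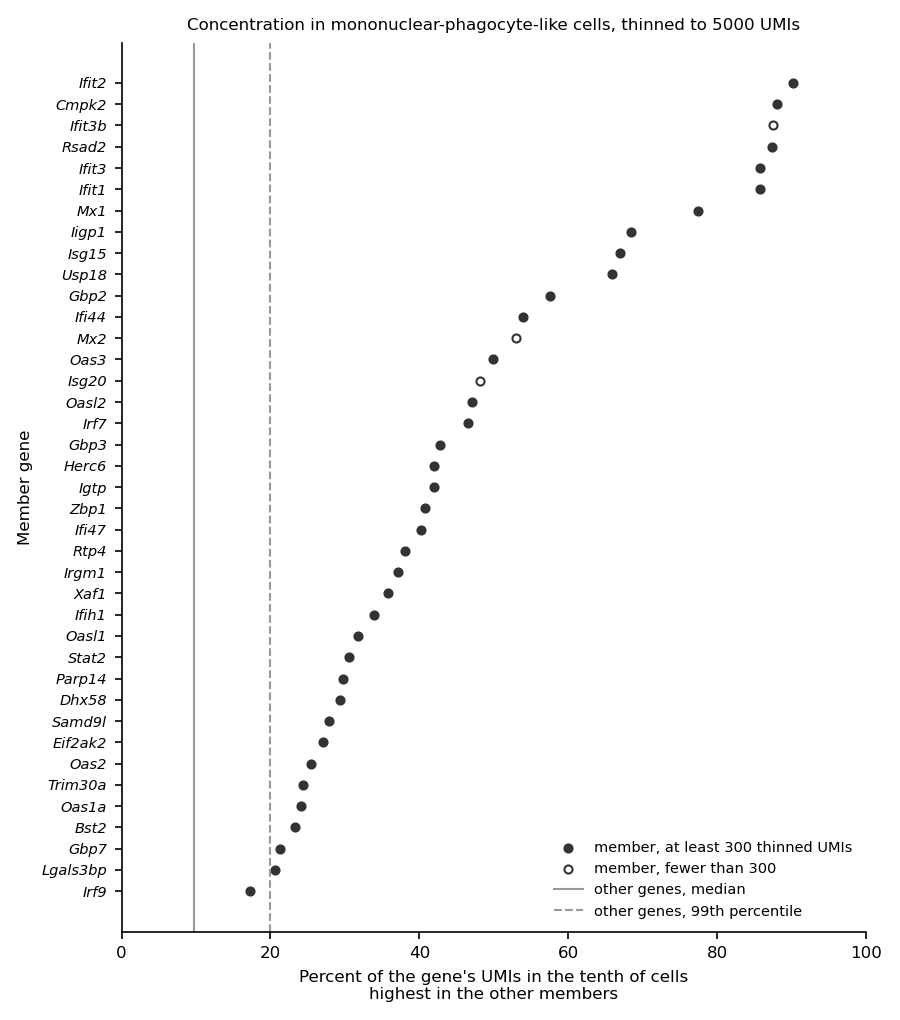
Each point is a member, and the x axis is the percent of its UMIs in the 10% of mononuclear-phagocyte-like cells highest in the other members, both libraries together, thinned to 5000 UMIs. Open points have fewer than 300 thinned UMIs, and the lines mark the median (9.77%) and 99th percentile (19.9%) of other genes; Ifit2, Cmpk2 and Rsad2 lie near 90%, Irf9 at 17.3%.

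The 10% of phagocytes with most member UMIs comprised 1005 cells and held 41.9% of member UMIs. It took in 525 cells (10.5%) of the knockdown-label library and 480 (9.48%) of the WT-label library, 12.7% of macrophage-like cells and 6.29% of monocyte-like cells. Its limit of 13 member UMIs is a point on a range, with 480 cells within 1 UMI of it. The median phagocyte had 4.00 member UMIs under either label, 5.94% and 5.96% had none, and the richest cells had 297 and 231. Detection went together: of 490 phagocytes with an Rsad2 UMI after thinning, 29.2% had Ifit1 and 54.1% had Isg15, against 1.86% and 9.63% of phagocytes without one. Bst2 was in 65.3% of the former and 47.1% of the latter. Neutrophil-like cells, thinned to 1000 UMIs, were also uneven: the top 248 of 2481 held 56.9% of member UMIs, and 81.3% of Rsad2 UMIs but 27.2% of Samd9l UMIs lay in the 10% highest in other members.

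Between the labels, no member was 1.5-fold apart in the phagocytes. This fold was taken on log2(CPM + 5) among genes that reached both 20 UMIs and 10 CPM under one of the labels, and 33 of 39 members were measured by that rule. Over all genes, 0.380% were at least 1.5-fold higher and 0.620% at least 1.5-fold lower under the knockdown label. The members' log2 differences (knockdown label minus WT label) ran from -0.35 to 0.28 with a median of -0.01, beside -0.02 over all genes measured, 16 above 0 and 17 below. The module sum was 1348 against 1329 CPM, a ratio of 1.01 (1.01 to 1.02).

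The roles differed in small ways. The 3 sensors, Ifih1 (which encodes the RNA sensor MDA5), Dhx58 (its relative LGP2) and Zbp1 (a sensor of Z-form nucleic acid), lay above 0, with a median log2 difference of 0.10. Of 15 measured antiviral effectors 10 lay below 0, with a median of -0.10, where 4342 of all 7904 genes measured lay below 0. Summed over all 19 effectors the level was the same, 584 against 582 CPM, a ratio of 1.00 (0.991 to 1.02). Signalling genes had 3 above and 2 below, the ubiquitin-related group 3 and 2, and the GTPases 2 and 3. Bst2 stood at 180 CPM under the knockdown label and 147 under the WT label, a ratio of 1.22 (1.19 to 1.26). Isg15 stood at 58.2 and 50.6 CPM, 1.15 (1.10 to 1.21), and its log2 difference of 0.19 was 0.12 with each cell weighing the same. Xaf1, a promoter of cell death, stood at 20.4 and 17.2 CPM (1.19, 1.10 to 1.28), and Rtp4, a receptor chaperone with antiviral activity, at 42.3 and 36.8 CPM (1.15, 1.09 to 1.21).

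Lower under the knockdown label were Oas1a at 12.7 and 16.0 CPM, a ratio of 0.790 (0.723 to 0.863), and Ifit3 at 13.8 and 17.2 CPM, 0.802 (0.737 to 0.873). Rsad2 and Ifit2, the other members at this end, had log2 differences of -0.35 and -0.26. Of these 4, all but Oas1a were among the 5 most concentrated members, and the counting interval treats the many UMIs of 1 cell as independent. Rsad2 had a UMI in 6.16% and 7.79% of phagocytes. Other members with many UMIs differed less. Trim30a, a ubiquitin-ligase family protein, stood at 134 and 130 CPM, Gbp7 at 94.5 and 96.7, Lgals3bp at 93.5 and 90.7, and Ifi44 at 59.3 and 56.1.

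**Figure D3:**
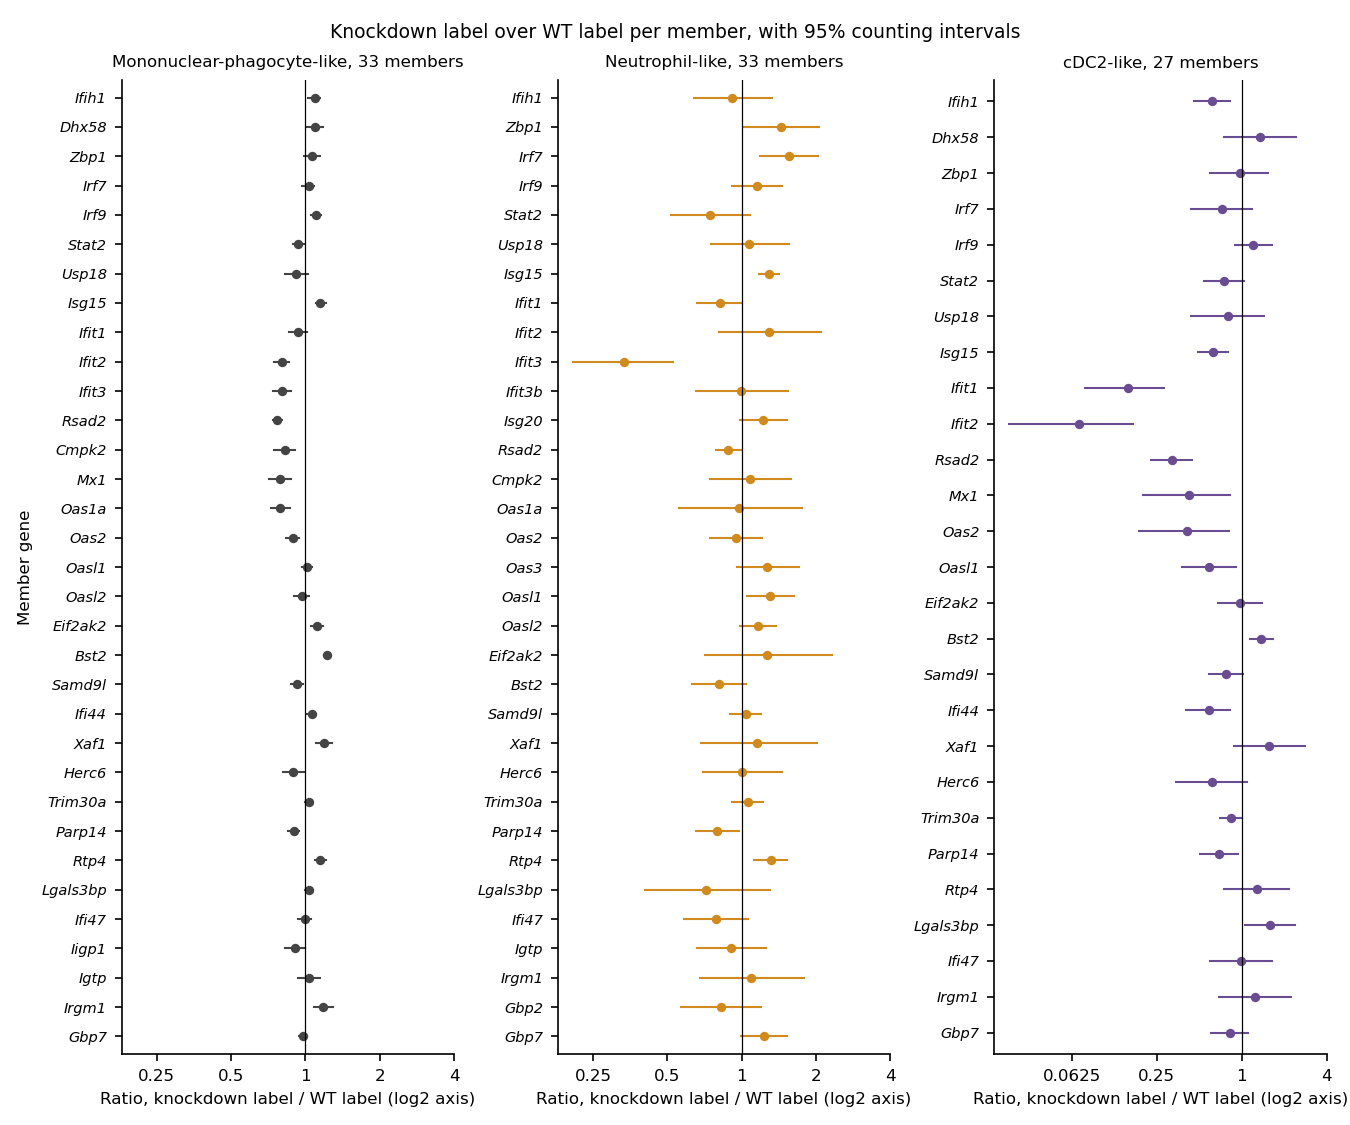
Ratios of CPM, knockdown label over WT label, for each measured member in mononuclear-phagocyte-like, neutrophil-like and cDC2-like cells on log2 axes; bars are 95% counting intervals and the line marks 1. Phagocyte ratios lie between 0.768 and 1.22, Ifit3 stands at 0.334 among neutrophils, and Ifit1, Ifit2 and Rsad2 lie far to the left in cDC2-like cells.

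When phagocytes were split, macrophage-like and monocyte-like cells diverged for some members. Phagocytes in neither gate, 374 and 519 cells, had a module sum of 890 (863 to 918) against 1177 (1150 to 1204) CPM. In the gated cells no measured member was 1.5-fold apart: among 33 in macrophages 19 lay above 0 and 14 below (median log2 difference 0.05, all genes 0.01), and among 30 in monocytes 8 above and 22 below (median -0.12, all genes -0.04). Of all genes measured, 4047 lay above 0 and 3827 below in macrophages, and 3045 above and 4756 below in monocytes, so monocytes leaned below 0 in general. At least 1.5-fold higher were 0.483% of all genes and lower 0.775% in macrophages, and 0.359% and 0.859% in monocytes. The module sum had a ratio of 1.05 (1.04 to 1.06) in macrophages and 0.942 (0.925 to 0.960) in monocytes. Isg15 was at 64.6 and 45.8 CPM in macrophages, a ratio of 1.41 with a lower bound of 1.33, and it had a UMI in 25.8% and 19.1% of cells. In monocytes it was at 48.6 and 54.7 CPM, 0.888 (0.820 to 0.962), in 15.1% and 16.3% of cells.

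Ifit1 likewise stood at 20.4 and 17.5 CPM in macrophages, 1.16 (1.05 to 1.29), and at 10.5 and 15.1 CPM in monocytes, 0.698 (0.591 to 0.823). Ifi44 had 2934 and 2188 UMIs in macrophages, 1.23 (1.17 to 1.30), and 1205 and 1348 UMIs in monocytes, 0.868 (0.802 to 0.939). With Ifih1, Oasl1 and Trim30a, 6 of 28 members measured in both had intervals on opposite sides of 1, beside 4.19% of 7369 genes. These intervals treat the many UMIs of 1 cell as independent. Among all phagocytes 52 cells held as many Ifit1 UMIs as the rest, and 200 cells did so for Isg15. Other genes were mostly less concentrated, so the 4.19% is not a like-for-like share. The log2 difference was larger in macrophages than in monocytes for 22 of the 28 members and for 66.8% of the 7369 genes. Median depth also differed by label, 12516 and 11044 UMIs in macrophages against 10405 and 11453 in monocytes, and its part in the divergence was not tested.

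Other members differed in the same direction in both. Bst2 stood at 212 and 170 CPM in macrophages (1.25, 1.21 to 1.29) and at 130 and 113 CPM in monocytes (1.16, 1.10 to 1.22). Eif2ak2, which encodes the RNA-activated kinase PKR, stood at 31.9 and 28.5 CPM in monocytes (1.12, 1.01 to 1.24), and Irf9 at 38.8 and 33.7 CPM (1.15, 1.05 to 1.27). Rsad2, Ifit2, Ifit3 and Oas1a were lower under the knockdown label in both. Rsad2 stood at 47.8 and 58.5 CPM in macrophages (0.818, 0.770 to 0.868) and at 56.4 and 72.4 CPM in monocytes (0.779, 0.725 to 0.838). Ifit2 had ratios of 0.811 (0.740 to 0.888) and 0.697 (0.602 to 0.805), and Oas1a 0.805 (0.722 to 0.898) and 0.709 (0.597 to 0.842). Ifit3 had 0.775 (0.701 to 0.857) and 0.794 (0.654 to 0.962). Rtp4 was higher under the knockdown label in macrophages, at 55.4 and 45.8 CPM (1.21, 1.14 to 1.29), and in monocytes its interval included 1, at 23.2 and 23.5 CPM (0.989, 0.877 to 1.11).

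**Figure D4:**
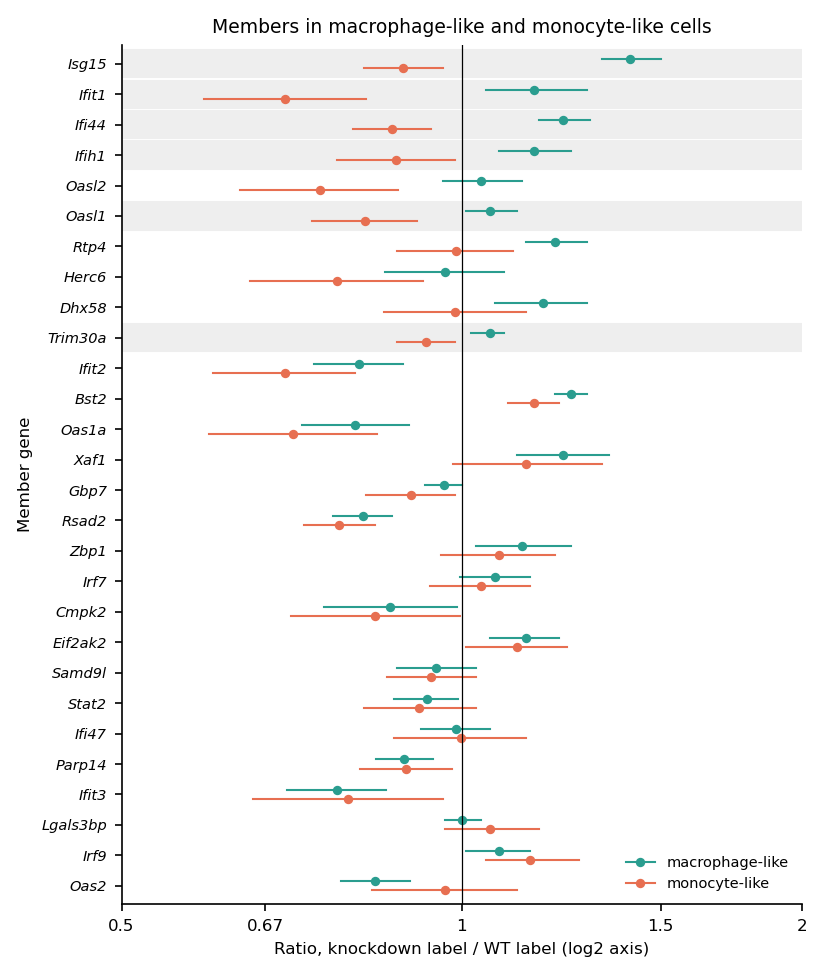
Ratios of CPM, knockdown label over WT label, with 95% counting intervals on a log2 axis, for the 28 members measured in both macrophage-like and monocyte-like cells, ordered by the difference between them. Shaded rows are the 6 members whose intervals lie on opposite sides of 1, led by Isg15 (1.41 and 0.888).

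In neutrophil-like cells 33 members were measured, with 19 above 0 and 14 below and a median log2 difference of 0.08, beside -0.06 over all genes. None was at least 1.5-fold higher and 1 was at least 1.5-fold lower, where the shares over all genes were 2.19% and 4.24%. The lower one, Ifit3, had 32 UMIs (10.7 CPM) under the knockdown label and 53 UMIs (32.1 CPM) under the WT label, a ratio of 0.334 (0.208 to 0.527). Its near-copy Ifit3b stood at 21.7 and 21.8 CPM, a ratio of 0.997 (0.654 to 1.54). Isg15 was the member with most neutrophil UMIs, 1578 (527 CPM, in 29.3% of cells) and 678 (410 CPM, in 21.4%), a ratio of 1.29 (1.17 to 1.41). Irf7, the transcription factor that amplifies type I interferon, stood at 73.2 and 47.2 CPM, 1.55 (1.19 to 2.03). Its log2 difference of 0.58 fell just short of the 1.5-fold limit and passed it under 4 alternative settings. Rtp4, at 187 and 143 CPM (1.31, 1.12 to 1.53), and Zbp1, at 41.8 and 29.0 CPM (1.44, 1.02 to 2.05), were also higher.

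Lower in neutrophils beside Ifit3 were Parp14, a mono-ADP-ribosyltransferase, at 81.2 and 102 CPM (0.794, 0.650 to 0.972), Stat2 at 24.4 and 32.7 CPM (0.747, 0.518 to 1.08) and Lgals3bp at 10.0 and 13.9 CPM (0.720, 0.405 to 1.30). The intervals of Stat2 and Lgals3bp include 1. Rsad2 stood at 259 and 294 CPM, 0.881 (0.785 to 0.989). Trim30a, at 187 and 177, Samd9l, at 173 and 167, and Oasl2, an oligoadenylate synthetase relative, at 141 and 121 CPM, had intervals that include 1.

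In T-cell-like cells, 101 and 134 in number, the module sum was 2960 against 2308 CPM, a ratio of 1.28 (1.18 to 1.40). The median cell stood closer, at 1674 and 1560 CPM of its own UMIs, and the highest cells reached 36165 and 22871 CPM. Of 21 measured members 17 lay above 0 and 4 below, and the median was 0.27 beside -0.06 over all genes. At least 1.5-fold higher were 5 (8.73% of all genes were), and none was lower (11.6% of all genes). These counts and names were chosen after the values were seen. Mx1, a gene of the dynamin-like GTPase family, had 28 and 8 UMIs (74.9 and 17.6 CPM), a ratio of 4.27 (1.90 to 10.8). Isg20 stood at 102 and 35.1 CPM (2.90, 1.58 to 5.56), Ifit3 at 102 and 39.5 CPM (2.57, 1.43 to 4.79), Rsad2 at 112 and 57.0 CPM (1.97, 1.18 to 3.35) and Rtp4 at 69.6 and 39.5 CPM (1.76, 0.929 to 3.41). Ifit1 stood at 276 and 274 CPM, a ratio of 1.00 (0.767 to 1.32). Without the richest cell of each library, Ifit3, Isg20 and Rtp4 stayed past the fold while Mx1 and Rsad2 were no longer among those called, and Herc6 and Trim30a passed it. Macrophage markers summed to 3506 CPM in these cells under the knockdown label and 1975 under the WT label, and their part in the difference was not tested.

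cDC1-like cells, 106 and 131, had a module sum of 2303 and 2365 CPM, and the median cell stood at 1387 and 1164 CPM of its own UMIs. Macrophage markers summed to 390 and 986 CPM in them, and their part in the values was not tested. Of 31 measured members, 2 were at least 1.5-fold higher and 2 lower (2.79% and 4.78% of all genes). Irgm1, a regulator of the immunity-related GTPases, was at 31.2 and 18.4 CPM (1.69, 1.02 to 2.83) and Igtp, of the same family, had 23 and 15 UMIs (1.88, 0.941 to 3.88). Usp18, which removes ISG15 and damps the receptor, was at 35.1 and 56.6 CPM (0.621, 0.424 to 0.899) and Ifit1 at 11.7 and 24.2 CPM (0.485, 0.248 to 0.902). These names too were chosen after the values were seen.

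cDC2-like cells, 144 and 190, had a module sum of 807 against 1066 CPM, a ratio of 0.757 (0.711 to 0.806). Of 27 measured members, 9 were at least 1.5-fold lower (4.24% of all genes) and none was higher (2.57%), and the median was -0.33 beside -0.02. The 9, also named after the values were seen, were Ifih1, Isg15, Ifit1, Ifit2, Rsad2, Mx1, Oas2, Oasl1 and Ifi44. Ifit2 had 5 UMIs in 3 cells under the knockdown label and 100 in 9 cells under the WT label, a ratio of 0.0702 (0.0223 to 0.169), and 61 of the 100 came from 1 cell. Rsad2 had 48 UMIs in 7 cells and 210 in 26 cells, 0.321 (0.229 to 0.441), with 73 in that same cell. Isg15 stood at 49.4 and 78.6 CPM (0.628, 0.486 to 0.805), whereas Bst2 stood at 116 and 84.3 CPM (1.38, 1.14 to 1.67).

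Single cells weighed on the cDC2 difference. The richest WT-label cDC2-like cell held 343 of 2819 member UMIs (12.2%), and without the richest cell of each library 7 of 26 members were past the fold and the median was -0.27. The median cDC2-like cell had member UMIs at 642 CPM of its own UMIs under the knockdown label and 648 under the WT label, while the highest cell was at 7462 and 14972. Macrophage markers in this class summed to 2681 and 1481 CPM, and their part was not tested.

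Tumour-like cells, the class meant to carry the knockdown, numbered 46 and 88 and are described only. Whether each was a grafted cell was not tested. Bst2 stood at 339 and 382 CPM, Isg15 at 368 and 295, and Lgals3bp at 152 and 159. The module sum was 1681 against 2026 CPM, a ratio of 0.830 (0.789 to 0.872), and of 37 measured members 15 were at least 1.5-fold lower and 1 higher (5.15% and 2.25% of all genes). Ifit3 had 4 and 62 UMIs, Rsad2 19 and 113, Ifi44 44 and 206, and Iigp1 7 and 54. A single WT-label cell accounted for much of this: it had 103128 UMIs, all 39 members detected and 1301 of the class's 4782 member UMIs (27.2%), among them 79 of 113 Rsad2 and 95 of 206 Ifi44 UMIs. That cell had 108 Krt8 UMIs and 135 Krt18 UMIs, 5 C1qa UMIs, 2 Ptprc UMIs and no Ifnb1 UMI. Without the richest cell of each library 5 of 32 members were past the fold (Zbp1, Ifit3, Ifi44 and Iigp1 lower, Rtp4 higher) and the median log2 difference was 0.01 in place of -0.43. By cell, the median tumour-like cell had member UMIs at 1419 CPM of its own UMIs under the knockdown label and 1117 under the WT label, opposite in order to the sums.

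**Figure D5:**
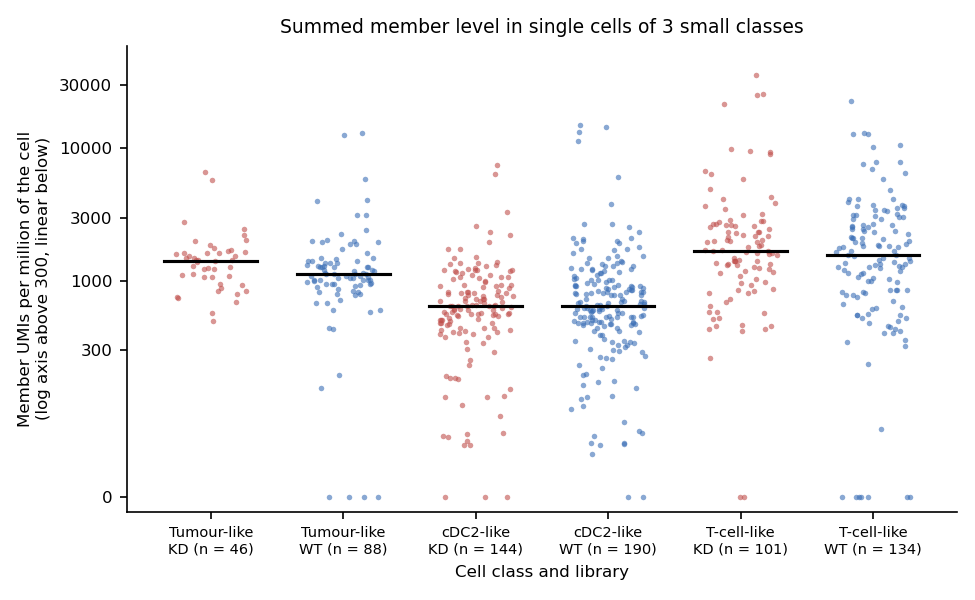
Each point is a cell, with its summed member UMIs as CPM of its own UMIs (log axis above 300, linear below), for tumour-like, cDC2-like and T-cell-like cells of the knockdown-label (KD) and WT-label libraries; black bars are medians over cells. Medians of cDC2-like cells are level (642 and 648), while single cells reach 14972 under the WT label.

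The inducers of the module were scarce. Of 20 interferon ligand genes 7 had a UMI in a kept cell. Ifnb1, the type I interferon beta gene, had 211 UMIs under the knockdown label and 124 under the WT label, of which phagocytes held 172 in 45 cells and 70 in 23 cells. Neutrophil-like and T-cell-like cells held none. Ifng, the interferon gamma gene, had 67 and 168 UMIs, of which T-cell-like cells held 37 in 20 cells and 106 in 36 cells, and natural-killer-like cells 25 and 47. Phagocytes with an Ifnb1 UMI, sought before thinning and so at unequal depth, numbered 42 and 22 among cells deep enough to thin. After thinning they had a mean of 28.3 and 26.4 member UMIs, against 6.59 and 6.84 in the other phagocytes. Their medians were 14 and 10.0, against 4 in the others of both libraries. The share of cells with an Ifnb1 UMI that fell in the richest 10% was 52.4% and 45.5%, against 10.2% and 9.32%.

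Receptors and kinases of the pathway differed little in phagocytes: of 9 measured none was past the fold, 2 lay above 0 and 7 below, with a median log2 difference of -0.11 beside -0.02 over all genes. Ifnar1 and Ifnar2, which form the type I receptor, stood at 79.4 and 81.3 CPM and at 97.9 and 98.3 CPM. Ifngr1, of the gamma receptor, stood at 119 and 132 CPM, a ratio of 0.901 (0.874 to 0.927), and the kinase Jak1 at 150 and 166 CPM, 0.902 (0.879 to 0.926). Ifnlr1, of the lambda receptor, had 49 and 26 UMIs in neutrophils (16.4 and 15.7 CPM) but 6 and 8 UMIs in phagocytes (0.0834 and 0.115 CPM). Among 7 measured negative regulators, the feedback inhibitor Socs3 stood at 231 and 279 CPM, 0.829 (0.812 to 0.846), and the phosphatase Ptpn6 at 168 and 153 CPM, 1.10 (1.07 to 1.13). Of 9 measured genes of nucleic acid sensing, 4 lay above 0 and 5 below, and the kinase Tbk1 stood at 49.8 and 59.3 CPM, 0.839 (0.802 to 0.878).

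Of 74 other interferon response genes, 46 were measured in phagocytes, 25 above 0 and 21 below, with a median of 0.02. The single one past the fold was Ifi211, a member of the DNA-binding HIN family, at 36.2 and 57.0 CPM, 0.635 (0.604 to 0.667). Ms4a4c, a membrane-spanning protein, stood at 91.1 and 69.8 CPM, 1.31 (1.26 to 1.35), and the immunoproteasome subunit gene Psmb8 at 160 and 134 CPM, 1.20 (1.16 to 1.23). Genes of this list were concentrated too: 52 of its 55 genes with enough UMIs lay above the 95th percentile of other genes, 13.7%. That limit is lower than the 99th percentile, 19.9%, used for the members. The list's median was 25.1%, beside 40.5% for the members. List genes are themselves among the other genes, and were scored on cells ranked by all members.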

How the data were processed

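Single-cell libraries were made on a 10x Genomics platform, per the labels, and the authors deposited whole UMI counts per gene and cell, made with Cell Ranger 7.1.0 on mm10 per the file headers and the submitters' processing notes. Strandedness and the chemistry end are not given in the sources used here. Libraries were told apart by the deposited barcode table.

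Cells with at least 200 genes, 500 UMIs and at most 20% mitochondrial UMIs were kept. The doublet caller marked no cell, so cells with the top scores were dropped (0.8% for each 1000 barcodes, 723 and 603 cells). Markers of 17 lists were scored per 10000 UMIs, and classes came from per-cell gates, with none for the mast-cell and erythroid lists. Gates were at least 10 from at least 3 markers for phagocytes, 30 for neutrophils, 8 for T cells and 10 for tumour cells. Neutrophils also needed more neutrophil than phagocyte marker UMIs, and phagocytes fewer than 10 neutrophil marker UMIs per 10000. Thinning to 1000 UMIs for the phagocytes' share and for label differences is given as its expected value. Other thinning is 1 seeded draw, and all thinning leaves out shallower cells. UMIs were summed by class and library. Intervals are exact at 95% (Poisson, conditional binomial, Clopper-Pearson). Analysis used Python 3.11.15, numpy 2.4.6, scipy 1.17.1 and scanpy 1.11.5, and scripts were tested on simulated data.

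Members named with values were, in classes of at least 200 cells per library, the 6 with most UMIs and up to 4 with the largest and smallest differences, and the 5 most and least concentrated. Pathway lists gave up to 4 genes each. The members and lists were chosen with earlier results of these data known. Coordinates of genes are GENCODE vM21 (GRCm38), in which 52081 (94.1%) of the matrix genes were found. List symbols Rigi, Tmem173 and Mb21d1 did not match the matrix.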

Additional observations from a re-analysis of the deposited data

Results flagged for a closer look

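The log2 difference between labels in macrophage-like cells minus that in monocyte-like cells was 0.61 for Isg15, 0.54 for Ifit1, 0.47 for Ifi44, 0.35 for Ifih1, 0.33 for Oasl1 and 0.17 for Trim30a. These 6 drew attention because the counting intervals of the 2 cell classes lay on opposite sides of 1, higher under the knockdown label in macrophages and lower in monocytes. Those intervals treat the UMIs of 1 cell as independent, and much of the Isg15 and Ifit1 signal lay in few cells. With 1 library for each label the difference between the classes was not tested. The sign held with each cell weighing the same, with cells thinned to 1000 UMIs and without the richest cell of each library, all 3 settings chosen after seeing the data.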

How the results depend on the processing

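In phagocytes no member passed 1.5-fold under any setting run, and the members' median log2 difference stayed within its counting range. In neutrophils the count past the fold was 2, Irf7 with Ifit3, with at most 10% mitochondrial UMIs, median-ratio scaling, a pseudocount of 1 CPM or a stricter marker gate, and 0 among members with at least 100 UMIs and 50 CPM, where Ifit3 is not measured. The phagocytes' share of member UMIs was 56.9% (knockdown label) and 65.9% (WT label) after thinning, 80.2% and 78.5% with a stricter gate and 83.8% and 82.1% with Leiden clusters. Under the knockdown label it was also 81.6% without Bst2 and 81.7% with no doublet removal. Leaving out the richest cell of each library was added after seeing the data and gave, in tumour-like cells, a median of 0.01 and 5 members past the fold. Of 329 single-gene values under other settings 304 stayed within their counting range or limit, 25 moved and no called direction reversed. No paired analysis was possible because each label has 1 library. Depth limits the neutrophil and T-cell values, and the causes of these shifts were not tested.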
